A study of Mus musculus with 6 samples.

Results

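The genes described are 10 that write, maintain or remove cytosine methylation: the DNA methyltransferase genes Dnmt1, Dnmt3a, Dnmt3b and Dnmt3l, the maintenance factor genes Uhrf1 and Uhrf2, the dioxygenase genes Tet1, Tet2 and Tet3, and the glycosylase gene Tdg. Members were every probe set annotated to one of these symbols alone. That gave 22 probe sets for 9 genes, of 34945 probe sets and 18193 genes with a symbol of their own on the array. Of these, 21 probe sets for 8 genes were bright enough to be tested. The Tet3 probe set was not, and the 3 probe sets that carry Tdg also carry 2 relatives of it, Tdg-ps and Tdg-ps2, so Tdg has no value of its own.

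RNA came from mouse embryonic stem cells of the R1 line that had received a lentivirus and been sorted for GFP, and was measured on 6 Affymetrix Mouse Genome 430 2.0 arrays. In the control group of 3 arrays the virus carried a short hairpin RNA (shRNA) against luciferase, a gene mouse cells lack. In the other 3 it carried shRNA1 against KIAA1718, the histone demethylase encoded by Kdm7a, and "knockdown" below stands for that label. All 6 samples share the line, the infection and the sort, each group rests on 1 hairpin, and the labels do not say whether replicates were grown or infected separately; p-values then reflect the spread of these samples alone, which may be technical.

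DNA methylation in mammals is set on CpG dinucleotides by DNMT3A and DNMT3B, with DNMT3L as a cofactor that has no catalytic activity of its own. DNMT1 copies the pattern to the new strand after replication, guided by UHRF1, which binds half-methylated CpG. TET enzymes oxidise the methyl group, and TDG cuts out some of the oxidised bases for repair. Embryonic stem cells in serum express most of these enzymes together, and Dnmt3b is also a marker of the primed epiblast, the stage after naive pluripotency.

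The promoter windows of the member that rose, Dnmt3b, of the member with the next largest increase in value, Dnmt3l, and of the member with the largest decrease in value, Tet2, are shown because these members have the largest differences described below and CpG is the site at which methylation is set and removed. Each runs from 250 bases before to 50 after a RefSeq start (GRCm38.p6), 5′ to 3′ on the gene's strand, with CpG in capitals. Dnmt3b is at chr2:153649199-153649498 on the plus strand, Dnmt3l at chr10:78042037-78042336 on the plus strand (the first of 3 listed starts) and Tet2 at chr3:133544341-133544640 on the minus strand.
Dnmt3b: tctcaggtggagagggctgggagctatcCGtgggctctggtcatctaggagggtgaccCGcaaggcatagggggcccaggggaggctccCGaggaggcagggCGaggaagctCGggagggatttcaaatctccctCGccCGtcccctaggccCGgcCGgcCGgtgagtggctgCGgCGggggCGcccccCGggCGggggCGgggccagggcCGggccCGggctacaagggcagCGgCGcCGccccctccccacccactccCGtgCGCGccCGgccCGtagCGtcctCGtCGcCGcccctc
Dnmt3l: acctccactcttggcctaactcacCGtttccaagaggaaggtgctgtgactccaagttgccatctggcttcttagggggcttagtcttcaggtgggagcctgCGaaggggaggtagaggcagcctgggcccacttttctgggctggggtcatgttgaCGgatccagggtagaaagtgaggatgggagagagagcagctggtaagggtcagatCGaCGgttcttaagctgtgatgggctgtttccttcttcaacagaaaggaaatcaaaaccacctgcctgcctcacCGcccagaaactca
Tet2: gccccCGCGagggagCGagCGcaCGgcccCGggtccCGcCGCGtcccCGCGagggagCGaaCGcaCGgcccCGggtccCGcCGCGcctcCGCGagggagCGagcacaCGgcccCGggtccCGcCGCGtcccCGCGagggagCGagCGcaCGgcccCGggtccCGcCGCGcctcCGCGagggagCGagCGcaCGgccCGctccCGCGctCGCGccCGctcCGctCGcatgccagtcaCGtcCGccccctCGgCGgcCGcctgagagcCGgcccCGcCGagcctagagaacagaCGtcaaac

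The Tet2 window holds 57 CpG, at or above 99.9% of 32851 mouse promoter windows of 300 bases, whose median is 7. Shifted against itself by 42 bases, 67.8% of its bases were equal, the most for any shift of 20 to 100 bases. The Dnmt3b window holds 30 CpG and the Dnmt3l window 6, and the other 2 Dnmt3l windows hold 4 and 3. Over all 17 listed windows of the 10 genes, the number ran from 2, at a Dnmt1 start, to 57. The hexamer GGGCGG, a GC box, was found on either strand in 13 of the 17 windows, among them 4 copies in the Dnmt3b window, 1 in the printed Dnmt3l window and 1 in the Tet2 window; 35.7% of all windows hold it. The windows are not separate observations, since some of these genes have several and some Dnmt3a windows overlap. Methylation itself was not measured here.

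Signals below are the deposited intensities after quantile normalization between arrays, unless called deposited. Differences are of log2(signal + 16), knockdown minus luciferase, so changes of dim probe sets are understated. A gene is called where limma gives an adjusted p under 0.05 over all 27022 tested probe sets. It stands by its brightest probe set, by mean signal over the arrays of both groups. Probe sets differ in their affinity, so their levels are not compared between genes. Because arrays measure bulk RNA, fewer cells of a type and less RNA per cell cannot be told apart.

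Median deposited signals ran from 9.58 to 13.3 across the arrays. As a sign of RNA integrity, signal at the 3′ end over that at the 5′ end ran from 0.842 to 0.931 for Gapdh and from 1.31 to 1.53 for beta-actin over the 6 arrays. The targeted gene Kdm7a gave no check of the labels: its brightest probe set read 38.5, 37.0 and 39.2 in luciferase replicates 1, 2 and 3 and 42.2, 23.0 and 30.2 in knockdown replicates 1, 2 and 3, a difference of -0.20 (limma adjusted p = 0.533). Its other tested probe sets differed by -0.16 and -0.22 (limma adjusted p-values of 0.585 and 0.462), and the rest of its 5 were too dim to test. On the last of those tested, every knockdown array was lower in normalized signal, while the groups overlapped in deposited signal. Of all tested probe sets, 24.3% had groups without overlap in normalized signal. Of 10 embryonic stem cell markers, all tested, 1 was called, Utf1, lower at -0.44, and Pou5f1, Sox2 and Nanog differed by -0.15, -0.081 and -0.42 with adjusted p-values of 0.386, 0.551 and 0.159 (limma). Of all 12734 genes tested, 6364 had a difference above 0, and 1431 were higher and 1373 lower at an unadjusted limma p under 0.05. Of the 10 stem cell markers, 9 had a difference below 0, and 4 were lower and none higher at that p. Their summed signal ran from 13790 to 13992 on luciferase arrays and from 12419 to 13004 on knockdown arrays, with no overlap, and its part in the members' values was not tested. Fibroblast (feeder) markers ranged from bright on every array, such as Acta2 at 1593 to 2454, to near the floor, such as Lum at 3.37 to 25.7. The summed signal of 19 of them was 5202, 9569 and 9164 on luciferase arrays 1, 2 and 3 and ran from 4976 to 6519 on knockdown arrays. Luciferase array 1 thus lay within the knockdown range. All 19 had a difference below 0, and 1, Pdgfra, was called.

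Of the 8 tested members, 1 rose, Dnmt3b, none fell, and 7 did not pass. For Tet2 this depends on the choice of probe set: the one brighter on the luciferase arrays was called lower (-0.85, limma adjusted p = 0.0353). Over all 12734 genes tested, 4.84% were called in either direction, 2.66% higher and 2.18% lower. By probe set, 3 of the 21 members were called, both of Dnmt3b and 1 of Tet2, against 3.68% of all probe sets. At an unadjusted limma p under 0.05, 2 members were higher (Dnmt3b and Dnmt3l) and 2 lower (Tet2 and Dnmt3a). Of all 12734 genes tested, 1431 were higher and 1373 lower at that p. The median difference was -0.13 over the 8 members and -0.000315 over all genes. Groups did not overlap for 3 of the 8 (Dnmt3b, Dnmt3a and Tet2), or 37.5%, against 27.9% of all genes; by probe set these were 6 of 21, or 28.6%, against 24.3%. The members thus did not move as one: values ran from 0.81 for Dnmt3b to -0.51 for Tet2.

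**Figure D1:**
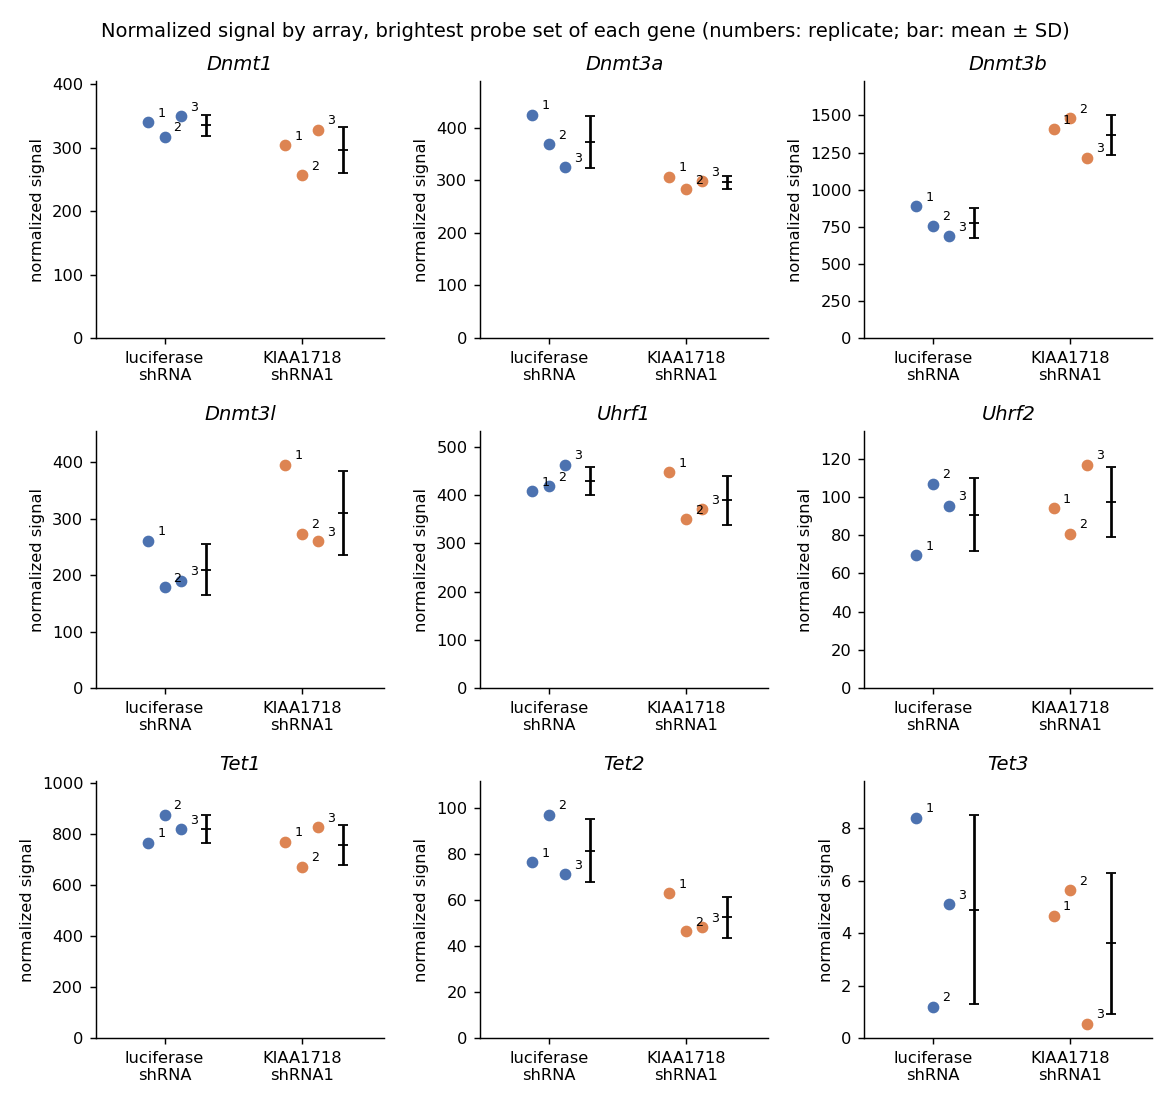
Normalized signal (vertical axis, array units, from 0) of the brightest probe set of each of the 9 measured genes on the 3 luciferase and 3 knockdown arrays; points are arrays numbered by replicate, and bars are the mean ± SD. The Dnmt3b points of the knockdown arrays, from 1217 to 1482, lie above the luciferase points, from 688 to 888, while those of Dnmt1, Uhrf1, Uhrf2 and Tet1 overlap.

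Among the de novo enzymes, Dnmt3b read 888, 758 and 688 in luciferase replicates 1, 2 and 3 and 1408, 1482 and 1217 in knockdown replicates 1, 2 and 3. Every knockdown array was above every luciferase array, also in deposited signal. The means were 778 ± 101 and 1369 ± 137 (SD, n = 3), a difference of 0.81 ± 0.10 (SE; 95% interval 0.58 to 1.03; limma adjusted p = 0.00203), or 1.75-fold. The other Dnmt3b probe set read 229, 203 and 176 on the luciferase arrays and 379, 313 and 326 on the knockdown arrays. It rose by 0.70 ± 0.12 (SE; limma adjusted p = 0.0104), so both probe sets of the gene gave the same direction and a like size.

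The Dnmt3b call was kept in all 16 alternatives run, at 0.63 to 0.91, with adjusted p-values of 0.000182 to 0.0373 (limma). The lowest value, 0.63, came with the fibroblast marker mean as a covariate. The other probe set was not called with that covariate (0.52, limma adjusted p = 0.152) or without luciferase replicate 3 (0.61, limma adjusted p = 0.0623). Dnmt3b lies on chromosome 2, where the median difference of 1009 other genes was 0.00935, with 29 called higher and 10 lower. Of all genes tested, 2.66% were called higher and 2.18% lower.

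Dnmt3a, the second de novo enzyme, read 425, 369 and 325 on luciferase arrays 1, 2 and 3 and 307, 283 and 298 on knockdown arrays 1, 2 and 3. The knockdown arrays were all lower in normalized signal and overlapped the luciferase arrays in deposited signal. The difference was -0.31 ± 0.11 (SE; 95% interval -0.55 to -0.066; limma adjusted p = 0.157), which did not pass, and it ran from -0.47 to -0.10 over 16 alternatives, in none of which it was called. Its other 4 probe sets differed by -0.18, -0.092, -0.048 and 0.13, each with overlapping groups, so the gene's probe sets did not share a direction. The brightest of these 4 spread widely in controls, at 379, 176 and 260. Dnmt3a lies on chromosome 12, where 451 other genes had a median difference of -0.14, with 19 called lower and 3 higher. Of all genes tested, 2.18% were called lower and 2.66% higher. The part of the chromosome 12 shift in the Dnmt3a value was not tested.

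Dnmt3b and Dnmt3a can be set against each other within an array, where a scale factor of the array nearly cancels. Their log2 ratio was 1.04, 1.01 and 1.05 on luciferase arrays 1, 2 and 3 and 2.14, 2.32 and 1.97 on knockdown arrays 1, 2 and 3. The control values lie close together and all knockdown values are higher. The mean went from 1.03 ± 0.0205 to 2.15 ± 0.175 (SD, n = 3), a difference of 1.12 (two-sided exact permutation p = 0.1, the smallest that 3 against 3 arrays can give). The difference was 0.86 to 1.20 over the 11 alternatives that apply. This difference is that of Dnmt3b less that of Dnmt3a as given above, so it restates them, and its p could not have passed. It uses the Dnmt3a probe set with the largest decrease of 5; with the mean of each gene's probe sets it was 0.86. The level of the ratio has no meaning, since the probe sets differ.

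**Figure D2:**
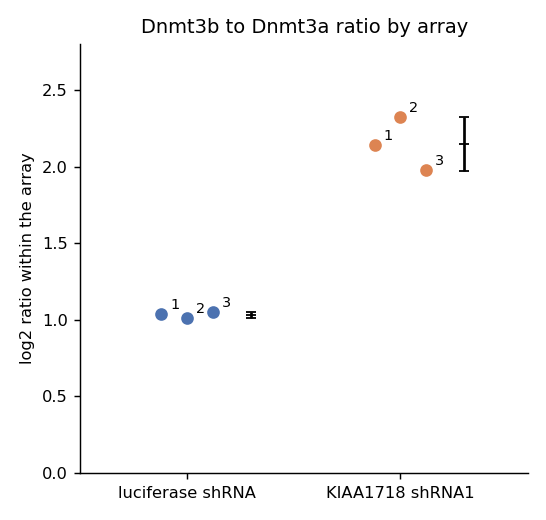
Log2 ratio of normalized Dnmt3b signal to Dnmt3a signal within each array (vertical axis), for the 3 luciferase and the 3 knockdown arrays numbered by replicate, with the mean ± SD as bars. The luciferase arrays lie between 1.01 and 1.05 and the knockdown arrays between 1.97 and 2.32.

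Dnmt3l, the cofactor of the de novo enzymes, has 1 probe set. It read 261, 179 and 190 on luciferase arrays 1, 2 and 3 and 396, 274 and 260.0 on knockdown arrays 1, 2 and 3. Luciferase replicate 1 was just above knockdown replicate 3, and in each group the array numbered 1 was the highest; in deposited signal the groups did not overlap. The difference was 0.52 ± 0.17 (SE; 95% interval 0.15 to 0.89; limma adjusted p = 0.121) and did not pass. With replicate number as a block, which removes what equally numbered arrays share, the same difference had an SE of 0.10 and passed (limma adjusted p = 0.0137). With the fibroblast marker mean as a covariate it was 0.14 (limma adjusted p = 0.744). Without knockdown replicate 1 it was 0.34. Of 15 other alternatives than the block, none called it. Chromosome 10, which carries Dnmt3l and Tet1, had a median difference of 0.0136 over 612 other genes.

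In the maintenance machinery no probe set passed. Dnmt1, the maintenance enzyme, read 340, 318 and 350 on luciferase arrays 1, 2 and 3 and 304, 256 and 328 on knockdown arrays 1, 2 and 3. The groups overlapped, and the difference was -0.18 ± 0.11 (SE; 95% interval -0.42 to 0.063; limma adjusted p = 0.423). Its other probe sets differed by -0.051 and -0.24. A change of Dnmt1 of the size seen for Dnmt3b lies outside each of the 3 intervals, of which the widest ran from -0.53 to 0.043.

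Uhrf1, which brings DNMT1 to newly replicated CpG, read 409, 419 and 463 on luciferase arrays 1, 2 and 3 and 448, 350.0 and 371 on knockdown arrays 1, 2 and 3, with overlap. It differed by -0.14 (95% interval -0.38 to 0.095; limma adjusted p = 0.529). Its other probe set differed by 0.27 with an interval of -0.27 to 0.82. There luciferase replicate 2 stood low, at 47.6 against 126 and 112 on the other luciferase arrays, and without it the value was -0.090. The 2 probe sets of Uhrf1 therefore did not give 1 direction.

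Uhrf2, the relative of Uhrf1 with a weaker role in maintenance, read 69.6, 107 and 95.3 on luciferase arrays 1, 2 and 3 and 94.1, 80.8 and 117 on knockdown arrays 1, 2 and 3. It differed by 0.090 (95% interval -0.27 to 0.45; limma adjusted p = 0.821), and by -0.059 without luciferase replicate 1 and -0.031 without knockdown replicate 3. Its dim second probe set, at 11.8 ± 2.25 and 12.6 ± 3.00 (SD, n = 3), differed by 0.040. Uhrf2 is on chromosome 19, where 456 other genes had a median difference of -0.15, with 29 called lower and 4 higher. Of all genes tested, 2.18% were called lower and 2.66% higher. Uhrf1 and Dnmt1 lie on chromosomes 17 and 9, with medians of 0.00858 over 602 and 0.00831 over 726 other genes.

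Among the TET enzymes, Tet1 read 766, 876 and 821 on luciferase arrays 1, 2 and 3 and 770.3, 673 and 827 on knockdown arrays 1, 2 and 3. The groups overlapped, and the difference was -0.12 ± 0.094 (SE; 95% interval -0.32 to 0.087; limma adjusted p = 0.550). Its other 3 probe sets differed by 0.28, 0.14 and -0.037. On the brightest of these 3, luciferase replicate 2 read 290 against 514 and 608 on the other luciferase arrays, and on the next one 82.2 against 135 and 161. Without that array the first went from 0.28 to -0.021 and the next from 0.14 to -0.11. No probe set of Tet1 was called in any alternative run.

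Tet2 had the largest decrease in value. Its 2 probe sets are of nearly equal brightness. They were ranked over the arrays of both groups, so a fall in the knockdown lowers a probe set's rank. On the luciferase arrays alone, the probe set that does not represent the gene was the brighter, with a mean of 86.7 against 81.6. The one that represents the gene read 76.5, 97.1 and 71.3 on luciferase arrays 1, 2 and 3 and 63.0, 46.5 and 48.3 on knockdown arrays 1, 2 and 3, all lower in the knockdown, also in deposited signal. The difference was -0.51 ± 0.15 (SE; 95% interval -0.83 to -0.19; limma adjusted p = 0.0811), which did not pass.

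The other Tet2 probe set read 68.8, 118 and 72.8 on luciferase arrays 1, 2 and 3 and 51.7, 38.7 and 30.9 on knockdown arrays 1, 2 and 3. Here too every knockdown array was lower. It fell by 0.85 ± 0.19 on the log2 scale (SE; limma adjusted p = 0.0353). The call of this probe set was lost in 7 of 15 alternatives, where adjusted p-values ran up to 0.212: with no filter on low signal, with no intensity trend, with the fibroblast covariate (-0.75), without luciferase replicates 2 (-0.64) or 3 (-0.93) and without knockdown replicates 2 (-0.84) or 3 (-0.72). The mean of both probe sets gave -0.68 ± 0.15 (SE; limma adjusted p = 0.0230). Chromosome 3, which carries Tet2, had a median difference of 0.0349 over 626 other genes, with 20 called higher and 3 lower. Of all genes tested, 2.66% were called higher and 2.18% lower.

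Tet3 has 1 probe set, which lay at percentile 30.2 of all probe sets by mean signal, among the lowest 40% that were left out, so no statement on Tet3 rests on these arrays. It read 8.40, 1.20 and 5.11 on luciferase arrays 1, 2 and 3 and 4.67, 5.63 and 0.558 on knockdown arrays 1, 2 and 3. The arrays of both groups spread over the same low range.

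The 3 probe sets shared by Tdg, Tdg-ps and Tdg-ps2 cannot say which of these genes gave the signal, and they are outside the counts above. The first read 647, 709 and 682 on luciferase arrays 1, 2 and 3 and 828, 1027 and 919 on knockdown arrays 1, 2 and 3, and it was higher by 0.43 ± 0.091 (SE; limma adjusted p = 0.0266), a call lost in 9 of 15 alternatives. The other 2 differed by 0.22 and 0.12 (limma adjusted p-values of 0.120 and 0.463). On each of the 3, every knockdown array was above every luciferase array, where groups did not overlap for 24.3% of all tested probe sets. As the 3 carry the same symbols, they are not separate observations.

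**Figure D3:**
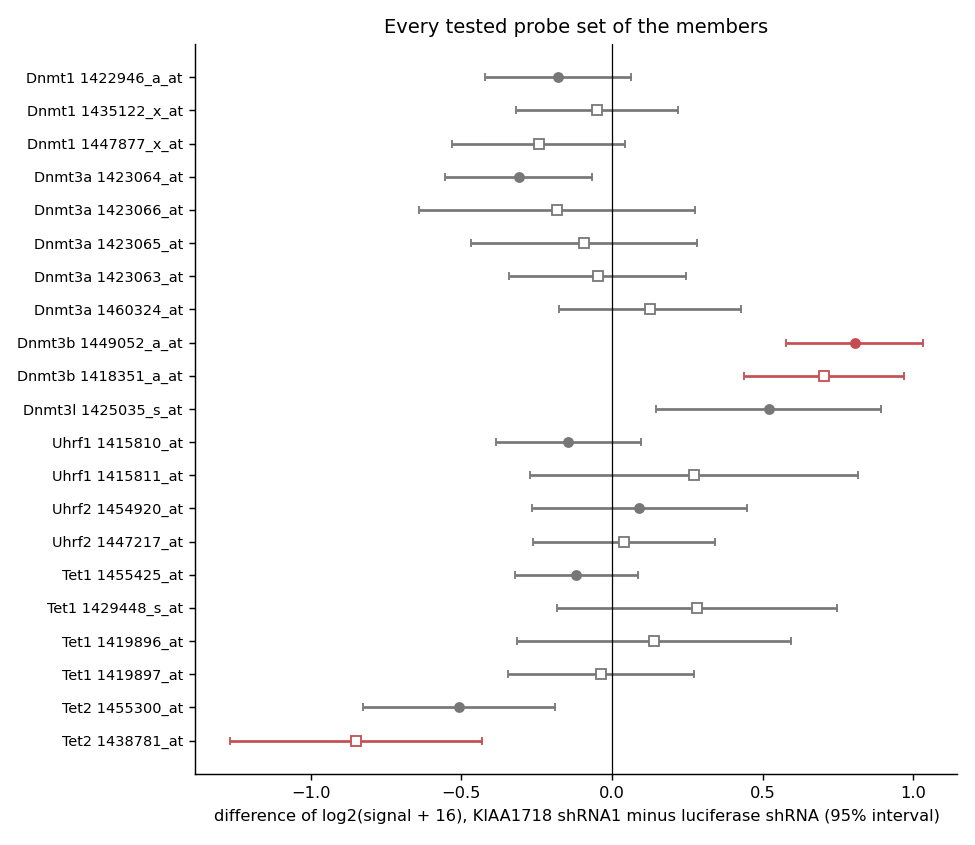
Difference of log2(signal + 16), knockdown minus luciferase (horizontal axis), with its 95% interval for each of the 21 tested probe sets of the members; filled circles are the brightest probe set of a gene, open squares the others, and red marks an adjusted p under 0.05. The intervals of both Dnmt3b probe sets lie above 0 and of both Tet2 probe sets below 0, while Tet1 and Uhrf1 have probe sets on both sides.

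Extremes of the member probe sets, several of which belong to 1 gene, were counted by array. The same counts were not made over all probe sets, so there is no share to set beside them. Of the 21 tested member probe sets, luciferase replicate 2 was the lowest of all 6 arrays in 7 and the highest in 5. Luciferase replicate 1 was also the highest in 5. Knockdown replicate 2 was the lowest in 7 and the highest in 1. The other 4 arrays were lowest in 1 to 3 each.

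By the distance between centred log2 values over the 6 arrays, the 5 genes nearest to Dnmt3b were Limd2, 2610037D02Rik, Selenop, Rragd and Tdrd12, at root mean square distances of 0.0680 to 0.0847, against a median of 0.445 over all genes. Limd2, which encodes a LIM domain protein, read 786, 644 and 634 on luciferase arrays 1, 2 and 3 and 1333, 1408 and 1196 on knockdown arrays 1, 2 and 3. Like Dnmt3b, it was highest in controls on array 1 and lowest in the knockdown on array 3. Selenop, which encodes a plasma carrier of selenium, rose by 0.77, Rragd, a GTPase gene of amino acid sensing, by 0.84, and Tdrd12, a gene of the piRNA pathway, by 0.74. With the mean of a gene's probe sets Limd2 and Rragd were 0.56 and 0.47, still called by limma. The call of Limd2 was kept in all 16 alternatives. Those of 2610037D02Rik, Selenop, Rragd and Tdrd12 were lost in 7, 2, 1 and 1 of them. The dim 2610037D02Rik read 14.5 ± 5.57 on luciferase arrays and 34.0 ± 3.93 on knockdown arrays (SD, n = 3), a difference of 0.73. The measure is a description of 6 arrays, and with 2 groups it chooses genes with a like difference between them.

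Of the other genes of the pathway, 7 lists with 116 symbols were described, of which 102 genes could be tested. Of these, 5 rose and 3 fell, or 7.84%, against 4.84% of all genes, and the median difference was -0.0178. With replicate number as a block 15 of them were called, while leaving out luciferase replicate 2 or 3 gave 5 or 2, and leaving out knockdown replicate 2 or 3 gave 4 or 2. The lists were chosen with earlier results of these data known, so the share of 7.84% is a description and no test of the pathway.

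Partners and regulators of the DNMT3 and TET enzymes had 2 members lower and none higher of 16, with a median of -0.089. Prdm14, a germ cell and naive pluripotency factor known to repress Dnmt3b in embryonic stem cells, read 179 ± 28.9 in controls and 88.8 ± 3.70 in the knockdown (SD, n = 3). It fell by 0.89 ± 0.13 on the log2 scale (SE; limma adjusted p = 0.00446), a call lost only with the fibroblast covariate (-0.72, limma adjusted p = 0.0741) among 16 alternatives. Ehmt2, the H3K9 methyltransferase gene, fell by 0.65 ± 0.094 (SE; limma adjusted p = 0.00396), a call lost only with unscaled signals (-0.51, limma adjusted p = 0.114). The remaining 14, from Morc1 at 0.46 to Ddb1 at -0.32, did not pass.

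Partners and regulators of DNMT1 and UHRF1 had 3 members higher and none lower of 12, with a median of 0.026. Dppa3, which encodes a protein that displaces UHRF1 from chromatin, read 57.1 ± 24.0 and 120 ± 18.3 (SD, n = 3) and rose by 0.94 ± 0.20 (SE; limma adjusted p = 0.0265). Setd7 and Csnk1d, which encode a lysine methyltransferase and a kinase that modify DNMT1, rose by 0.55 and 0.39 (limma adjusted p-values of 0.0332 and 0.0433). These 3 calls were lost in 8, 7 and 11 of 16 alternatives. Dppa3 went to 0.46 with the fibroblast covariate (limma adjusted p = 0.227), and it read 84.8, 44.3 and 42.3 on luciferase arrays 1, 2 and 3, of which array 1 was also the lowest in summed fibroblast signal. The part of fibroblast RNA in the Dppa3 value was not tested. Csnk1d went to 0.19 with the mean of its probe sets (limma adjusted p = 0.218). Pcna, the replication clamp gene, at 0.10 and Hells, a chromatin remodeller gene of DNA methylation, at -0.14 did not pass.

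In base excision repair, which replaces the base that TDG removes, 1 of 15 rose and 1 fell, with a median of 0.023. The DNA ligase gene Lig3 read 107 ± 12.5 and 165 ± 4.92 (SD, n = 3) and rose by 0.56 ± 0.12 (SE; limma adjusted p = 0.0241). Parp1, a sensor of DNA breaks, fell by 0.34 ± 0.081 on the log2 scale (SE; limma adjusted p = 0.0421). Calls of the 2 were lost in 7 and 10 of 16 alternatives, and Parp1 went to -0.22 with unscaled signals (limma adjusted p = 0.477).

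No reader of methylated or unmethylated CpG was called among 13 (limma; in none of the 16 alternatives either), and 3 were lower and none higher at an unadjusted p under 0.05. The smallest p-values belonged to Mbd2, which binds methylated CpG, at -0.39 (adjusted p = 0.0706) and Cxxc5, a CXXC domain gene, at -0.39 (adjusted p = 0.119). In the methyl donor cycle, which supplies S-adenosylmethionine, none of 11 was called by limma, with 2 higher and 2 lower at an unadjusted p under 0.05; the serine hydroxymethyltransferase gene Shmt2 differed by -0.38 (adjusted p = 0.0656, or 0.0409 in the blocked fit) and the methionine synthase gene Mtr by -0.54 (adjusted p = 0.0833). The median of that list was 0.14. Of all 12734 genes tested, 1431 were higher and 1373 lower at an unadjusted limma p under 0.05.

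Germline genes whose promoters are known to be held silent by methylation had a median of -0.17, with 3 of 14 tested above 0 and none called by limma (1 higher and 3 lower at an unadjusted p under 0.05). Of all 12734 genes tested, 6364 were above 0, and 1431 were higher and 1373 lower at that p. Tex19.1, a germline gene also active in embryonic stem cells, differed by 0.45 (adjusted p = 0.0712, or 0.0319 in the blocked fit) and Mael by -0.47 (adjusted p = 0.0718). Dazl and Ddx4, germ cell RNA regulators, differed by -0.22 and -0.35 (limma adjusted p-values of 0.464 and 0.192). Genes of S phase and proliferation, with which Dnmt1 and Uhrf1 transcripts vary over the cell cycle, had a median of -0.010, and 1 of 21 was called, Top2a, which rose by 0.37 ± 0.072 (SE; limma adjusted p = 0.0177) and lost its call in 8 of 16 alternatives. E2f1, a transcription factor gene of S phase entry, differed by -0.46 (limma adjusted p = 0.0542, and 0.0455 with the block). The summed signal of the list was 18984 to 19621 on luciferase arrays and 18464 to 19434 on knockdown arrays.

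**Figure D4:**
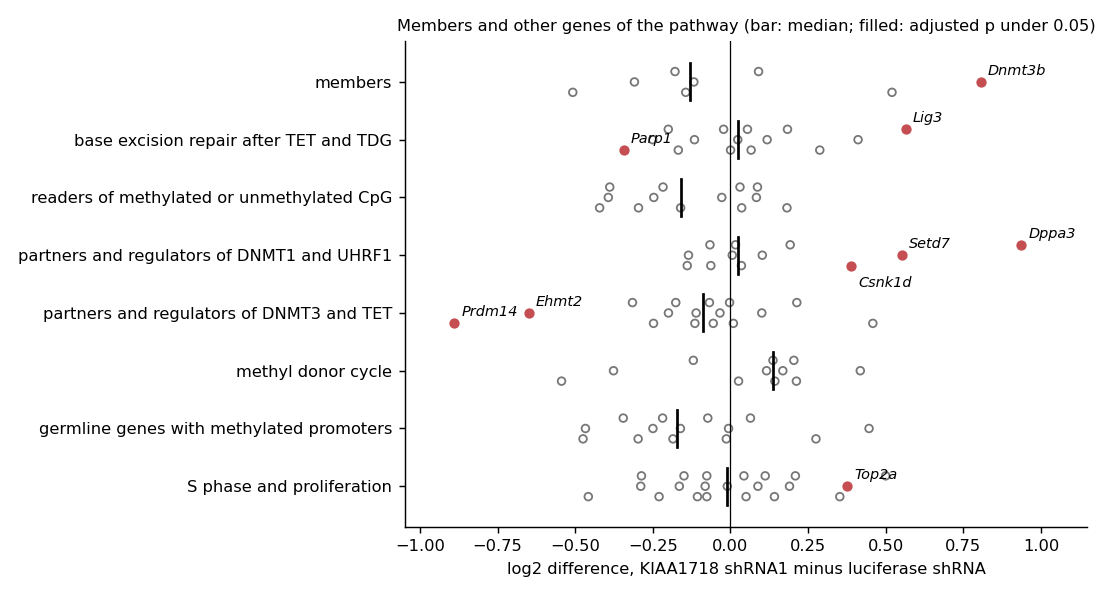
Log2 difference, knockdown minus luciferase (horizontal axis), of each tested gene of the members and of the 7 other lists (rows); filled red points have an adjusted p under 0.05 and are named, open points do not, and vertical bars are list medians. Dnmt3b is the called member, Dppa3 lies furthest to the right at 0.94 and Prdm14 furthest to the left at -0.89.

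Markers of other cell types that the cultures could hold were also counted, where 2.18% of all genes were called lower and 2.66% higher. Those of primitive endoderm had 3 of 9 tested members lower and none higher (Sox7, Dab2 and Pdgfra). Pdgfra is also the called fibroblast marker above, so it counts in both lists. Those of neuroectoderm had 2 of 7 higher and none lower, Fabp7 at 0.94 and Neurod1 at 0.68. In that list 5 of 7 were above 0, and Sox1 and Zic1 were below it at -0.29 and -0.053. No marker of trophectoderm (6 tested) or mesoderm (7 tested) was called by limma. At an unadjusted limma p under 0.05, 0 and 2 of these were higher, against 1431 of all 12734 genes. The summed primitive endoderm signal was 1034 to 1322 on luciferase arrays and 920 to 975 on knockdown arrays. In the same order, that of neuroectoderm was 244 to 268 and 356 to 376. That of mesoderm was 140 to 160 and 169 to 181, and that of trophectoderm 302 to 329 and 302 to 354. The part of these markers in the Dnmt3b, Dnmt3l and Tet2 values was not tested.

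**Figure D5:**
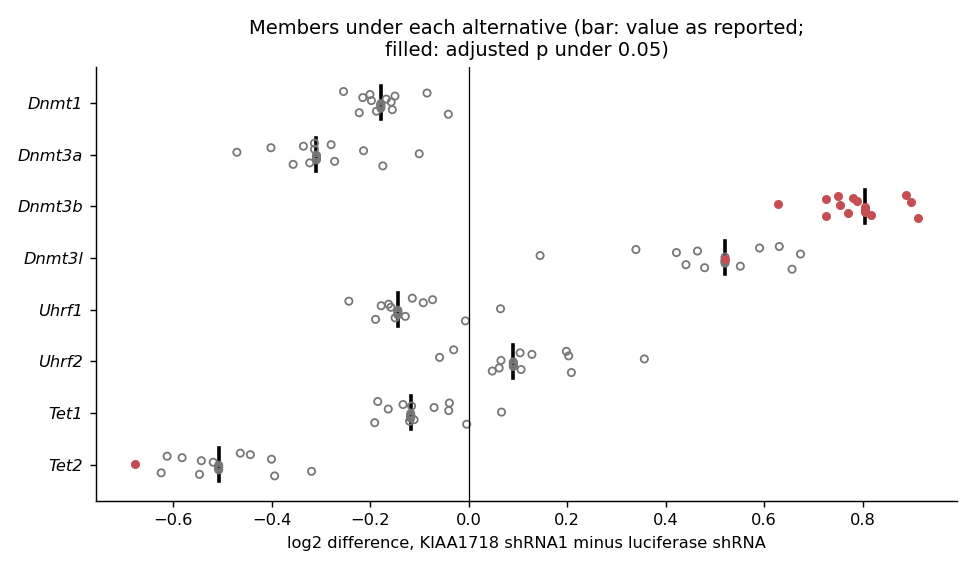
Log2 difference of each of the 8 tested members (rows) as reported (vertical bar) and under 16 alternative settings (points; filled where the adjusted p is under 0.05). All Dnmt3b points are filled and lie between 0.63 and 0.91; Dnmt3l is filled only when replicates are blocked and Tet2 only with the mean of its probe sets.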

How the data were processed

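RNA from 6 samples was hybridized to Affymetrix Mouse Genome 430 2.0 arrays. The authors deposited 1 linear signal intensity per probe set; per the submitters' processing notes the software was GCOS, with version and scaling not given in the sources used. Groups and replicate numbers came from the sample titles. The 64 AFFX controls were left out, signals were quantile normalized, and of 45037 probe sets those in the lowest 40% by mean signal were dropped. Log2(signal + 16) was fitted with limma 3.58.1 (R 4.3.3; lmFit, then eBayes allowing a trend with intensity), and two-sided p-values were adjusted by Benjamini-Hochberg over 27022 probe sets, with a threshold of 0.05; adjusted p-values are limma's. The fit was tested on simulated data.

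There were 34945 probe sets with 1 symbol, 932 with several and 9160 with none here. Current symbols were looked up by Entrez number with RefSeq (GRCm38.p6), which gave chromosomes and promoter sequences, found for all 10 members. A gene stands by its brightest probe set of 1 symbol. Besides the members, named genes are Kdm7a, up to 4 called genes per pathway list with the largest change, or the 2 with the smallest p where fewer than 2 were called, and the 5 genes nearest to Dnmt3b. Utf1, Pou5f1, Sox2, Nanog, Pdgfra, Acta2, Lum, Morc1, Ddb1, Pcna, Hells, Dazl, Ddx4, Sox7, Dab2, Fabp7, Neurod1, Sox1 and Zic1 were named after their values were seen. Members and lists were chosen with earlier results of these data known.

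Both groups use replicate numbers 1, 2 and 3. The correlation of deviations from the group mean was 0.202, 0.125 and 0.130 for the 3 pairs of equal number, each over 0.1, and -0.150 to 0.0236 for unequal numbers. The numbers were therefore treated as pairs in an alternative fit; no label says what a number marks. The number of arrays limits the precision. The other alternatives covered scaling, pseudocount, filter, trend, probe set choice, a fibroblast covariate and leaving out each array.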

Additional observations from a re-analysis of the deposited data

How the results depend on the processing

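Of the 8 tested members, Dnmt3b was called in all 16 alternatives, and Dnmt1, Dnmt3a, Uhrf1, Uhrf2 and Tet1 in none. Dnmt3l was called with the replicate block alone (0.52, limma adjusted p = 0.0137) and Tet2 with the mean of its probe sets alone (-0.68, limma adjusted p = 0.0230), so 2 members were called in each of these settings. With the mean of a gene's probe sets Uhrf1 was 0.064 and Tet1 0.066, both reversed. Leaving out 1 array gave 0.73 to 0.90 for Dnmt3b, 0.34 to 0.67 for Dnmt3l, -0.61 to -0.40 for Tet2, -0.40 to -0.21 for Dnmt3a, -0.25 to -0.085 for Dnmt1, -0.24 to -0.074 for Uhrf1, -0.059 to 0.20 for Uhrf2 and -0.19 to -0.040 for Tet1; 1 member was called each time.

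Further probe sets changed sign: with unscaled signals number 2 of Dnmt1 by brightness (0.085), numbers 3 and 4 of Dnmt3a (0.022 and 0.065) and number 4 of Tet1 (0.033), and with the fibroblast covariate number 5 of Dnmt3a (-0.069) and number 2 of Uhrf1 (-0.15). Without 1 array, number 2 of Dnmt1 ran from -0.14 to 0.055, numbers 2, 3 and 4 of Dnmt3a from -0.44 to 0.079, -0.25 to 0.093 and -0.097 to 0.047, number 2 of Uhrf1 from -0.090 to 0.49, number 2 of Uhrf2 from -0.027 to 0.12, and numbers 2, 3 and 4 of Tet1 from -0.021 to 0.49, -0.11 to 0.32 and -0.13 to 0.036.

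The count of called genes was 616, and 367 with unscaled signals, 197 with no filter, 388 with no intensity trend, 999 with the replicate block, 952 with the mean of a gene's probe sets, 113 with the fibroblast covariate, and 161 to 526 without 1 array (292 or 161 without luciferase replicates 2 or 3, and 397, 332 or 203 without knockdown replicates 1, 2 or 3). Other pathway genes called numbered 8, and 5, 2, 4, 15, 15 and 1 in the same 6 settings, and 2 to 7 without 1 array. Higher genes made up 55.0% of calls, 81.2% with unscaled signals, where the median of all genes was 0.11, and 42.7% with arrays scaled to one median. The ratio of Dnmt3b to Dnmt3a could not be fitted with settings that need a model across probe sets. The replicate block changed no call of a member other than Dnmt3l, and among the named pathway genes it added those of Shmt2, Tex19.1 and E2f1.

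Medians of the members' chromosomes moved with some of the settings. With unscaled signals those of chromosomes 2, 3, 6, 9, 10, 12, 17 and 19 were 0.12, 0.14, 0.12, 0.12, 0.12, -0.033, 0.12 and -0.034, and with arrays scaled to one median -0.019, 0.00874, -0.013, -0.021, -0.022, -0.19, -0.029 and -0.18. Chromosomes 3, 12 and 19 were 0.056, -0.18 and -0.20 with a pseudocount of 1 and 0.019, -0.089 and -0.085 with 64; chromosomes 12 and 19 were -0.17 and -0.18 with 60% of probe sets left out, and chromosome 3 was 0.047 with the fibroblast covariate. Without 1 array the 8 medians, in that order, were -0.00496 to 0.021, 0.030 to 0.040, 0.00602 to 0.032, 0.00205 to 0.020, 0.013 to 0.026, -0.15 to -0.11, -0.013 to 0.016 and -0.18 to -0.14. The cause of these moves was not tested.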
